A study of Homo sapiens with 24 samples.

Results

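The zinc exporters of the SLC30A family and MTF1, the transcription factor that senses zinc, were followed in 2 lymphoma cell lines treated with histone deacetylase (HDAC) inhibitors. The set held 8 genes of the 20046 read on the array: SLC30A1, SLC30A3, SLC30A4, SLC30A5, SLC30A6, SLC30A7, SLC30A9 and MTF1. By the array's annotation 14 of its 47231 probes belonged to them. The set was selected on values measured on these same arrays, namely the levels under DMSO and the changes of treated against DMSO arrays, so those levels and changes, and the differences built from them, are given as a description.

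DoHH2, labelled as diffuse large B-cell lymphoma (DLBCL) of the germinal centre B-cell type (GCB), and TMD8, labelled as the activated B-cell type (ABC), were each exposed for 8 h to 100 nM ITF-A, to 200 nM ITF-B or to the solvent DMSO alone. Both compounds are HDAC inhibitors known by code names. Each compound had its own DMSO arrays, which gave 8 groups of 3 arrays, 24 in all. Total RNA was hybridised to Illumina HumanHT-12 v4 BeadChips on 2 chips of 12 arrays. The 3 arrays of a group came from independent experiments, numbered 1 to 3 in the titles. Errors and p-values measure the spread between experiments, as 1 estimate for each probe pooled over the 8 groups of both lines. A group that scatters more than the others is therefore given too small an error. Each line is a single established line, and its values stand for that line alone. The number of arrays limits the precision. In bulk RNA, fewer cells of a kind and less RNA per cell cannot be told apart.

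Zinc leaves the cytosol through the SLC30A (ZnT) proteins, which carry it out of the cell or into organelles, and enters it through the SLC39A (ZIP) proteins. When cytosolic zinc rises, MTF1 binds metal response elements in the DNA and raises the transcription of the metallothioneins, which bind zinc, and of SLC30A1, the exporter of the plasma membrane. SLC30A3 loads zinc into synaptic vesicles of glutamatergic neurons, and SLC30A4 acts in endosomal and secretory vesicles. SLC30A5 pairs with SLC30A6 in the early secretory pathway, where these 2 proteins and SLC30A7 supply zinc to enzymes such as alkaline phosphatases. SLC30A9 carries zinc out of mitochondria.

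The arrays resembled each other closely, with median intensities from 93.24 to 112.1 and correlations from 0.9934 to 0.9961 within groups. As a check of the labels, the B-cell list (5 of 6 genes read) held DMSO levels from 6.02 to 12.89 on the log2 scale. All 4 ABC markers were higher in TMD8. Of the 4 GCB markers only MME was higher in DoHH2 (8.06 against 5.90), whereas BCL6 (5.84 against 9.16), LMO2 (6.56 against 9.62) and MYBL1 (6.06 against 6.38) were higher in TMD8, so the GCB label of DoHH2 was not borne out by this list. These are readings of 1 probe a gene, without a test. BCL6 and MYBL1 in DoHH2, and MME in TMD8, lay below the median of all probes. T-cell and erythroid markers lay at 6.22 or below under DMSO, close to the median of all probes (6.16), and none passed the test after treatment. Of the 4 monocyte markers, CSF1R (0.42, 0.44, 0.92 and 0.90 on the log2 scale; DoHH2 with ITF-A and ITF-B, then TMD8) and CD14 (0.26, 0.25, 0.54 and 0.38) rose in all 4 comparisons, from DMSO levels of 5.93 to 6.25. Of the 4 epithelial markers none passed in DoHH2, and only CDH1 did in TMD8, from 9.95 by 0.48 and 0.59. B-cell markers fell, 2 and 3 of the 5 in DoHH2 and all 5 in TMD8, where CD79B dropped by 1.64 with either compound. Of all genes, 18.8% to 19.3% passed upward and 17% to 17.8% downward in the 4 comparisons. The part of these marker changes in the results on the members was not tested.

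Since MTF1 acts through metal response elements, the promoters of the members were searched for the core of that element, spelled TGCACNC or TGCGCNC, on both strands. RefSeq promoters of build GRCh38.p14, from 250 bases before to 50 bases after each gene start, were used. This build differs from HG19, to which the array annotation refers. All 8 members matched, with 9 start sites, of which 5 held a core (7 matches). Over all 35116 promoters of this length, 10377 (29.6%) held one (TGCACNC 12.1%, TGCGCNC 20.0%). The 4 members with a match were SLC30A1, SLC30A3, SLC30A4 and SLC30A6, and the 4 without were MTF1, SLC30A5, SLC30A7 and SLC30A9. A match of these letters is a description and not a bound site. The promoters of SLC30A1 and SLC30A3 are shown because SLC30A1 is the classical MTF1 target of the family and SLC30A3 had the largest change of the 8 genes. The first run is chr1:211579162-211579411, minus strand, the second the 29 bases of chr1:211579120-211579148, minus strand, around a match that follows the start, and the last chr2:27275347-27275596, minus strand, before the first of 2 SLC30A3 starts. All read 5′ to 3′ on the strand of the gene, and capitals mark the core, read here as its reverse complement.
SLC30A1 before the start: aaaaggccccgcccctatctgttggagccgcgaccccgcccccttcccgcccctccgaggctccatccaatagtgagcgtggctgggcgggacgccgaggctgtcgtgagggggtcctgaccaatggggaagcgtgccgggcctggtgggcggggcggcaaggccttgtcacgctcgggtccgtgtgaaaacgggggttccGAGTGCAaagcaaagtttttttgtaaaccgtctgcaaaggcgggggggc
SLC30A1 after the start: gagaccgggccGAGTGCAgctgccgtggc
SLC30A3 before the start: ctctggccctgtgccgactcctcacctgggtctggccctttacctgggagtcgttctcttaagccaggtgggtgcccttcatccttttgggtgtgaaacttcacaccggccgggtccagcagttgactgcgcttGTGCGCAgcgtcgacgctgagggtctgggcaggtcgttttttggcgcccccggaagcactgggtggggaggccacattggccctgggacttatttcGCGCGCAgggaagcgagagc
In SLC30A1 the core lay 49 to 43 bases before the start, with another from base 25 to base 31 after it. In SLC30A3 the cores lay 116 to 110 and 20 to 14 bases before the first start, and another lay 241 to 235 bases before the second. SLC30A4 held 1 match, 124 to 118 bases before its start, and SLC30A6 held 1, from 128 to 122 bases before it.

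All levels that follow are log2 values after normexp background correction with an offset of 50 and quantile normalization. On this scale the change of a dim probe is understated. Values are listed in the order of experiments 1, 2 and 3, and changes are treated minus the DMSO arrays of the same compound, with the standard error of a limma fit over all 24 arrays with the chip as a term. Levels are not compared between genes, since probes differ in how strongly they hybridise. The threshold for a call was 0.05 on p-values adjusted by Benjamini-Hochberg over all 47231 probes. Whether groups of arrays overlap was looked at for member probes only, without a share over all genes, and is a description.

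Counted by the probe read for each gene, ITF-A in DoHH2 went with a rise of 5 of the 8 members and a fall of 1, while 19% of all 20046 genes were called up and 17.2% down. ITF-B in DoHH2 gave 4 rises and 1 fall, against 18.8% and 17% of all genes. In TMD8, ITF-A gave 5 rises and 1 fall (all genes 19.2% up, 17.8% down). ITF-B in TMD8 gave 5 rises and no fall (all genes 19.3% up, 17.4% down). The median change of the 8 members was 0.36, 0.38, 0.34 and 0.32 in these 4 comparisons, and that of all genes was close to 0. Because the set was selected on these changes, nothing is read from the counts. The genes that rose in all 4 comparisons were SLC30A1, SLC30A3, SLC30A9 and MTF1. SLC30A7 rose in 3, SLC30A5 by its brightest probe fell in 3, and SLC30A4 and SLC30A6 passed in none.

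**Figure D1:**
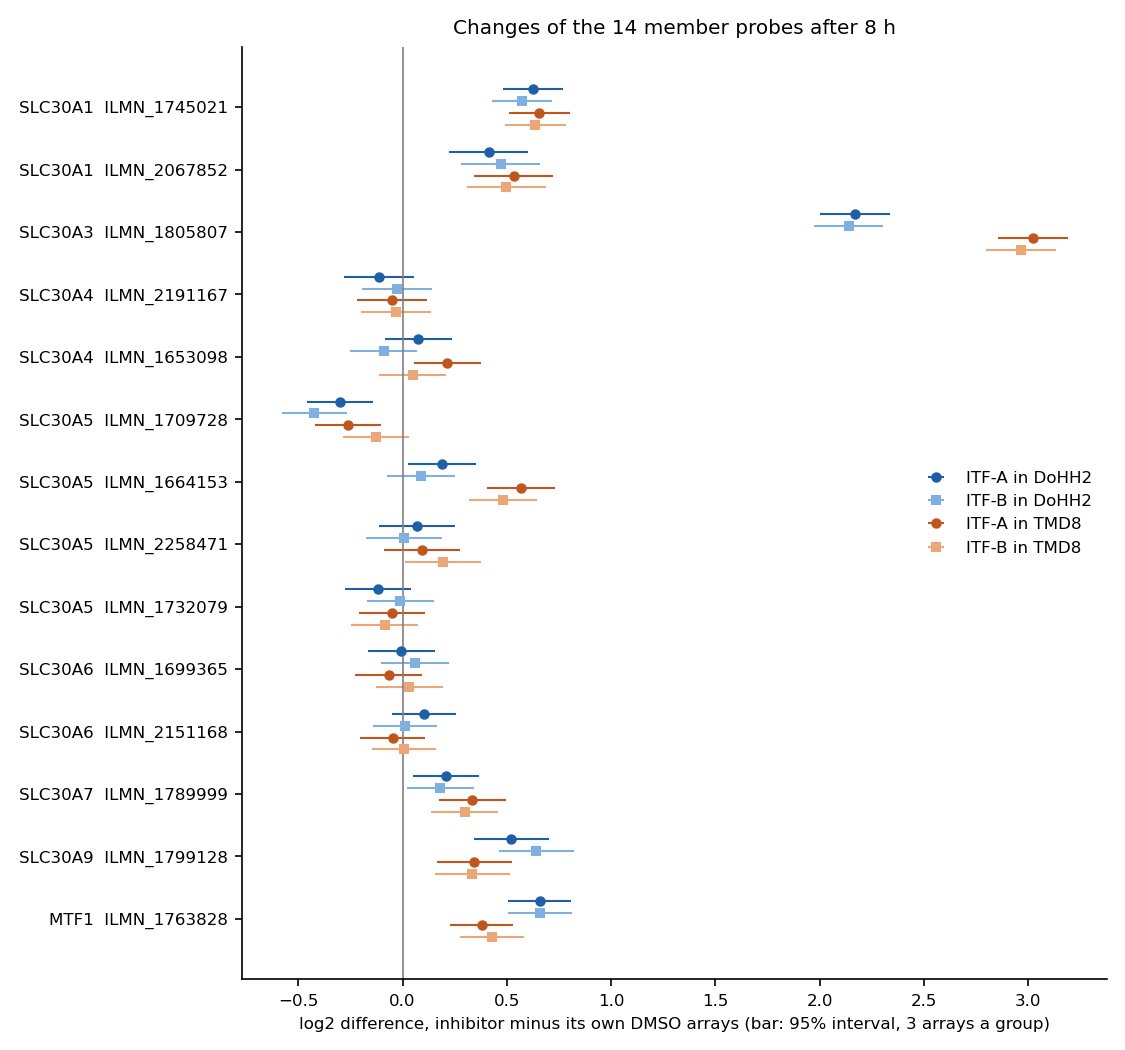
Change of each of the 14 member probes after 8 h, in log2 units (treated minus the DMSO arrays of the same compound, horizontal axis), with 95% intervals from the limma fit; circles are ITF-A, squares ITF-B, blue DoHH2 and orange TMD8. SLC30A3 stands apart at 2.14 to 3.02, both SLC30A1 probes and MTF1 lie between 0.38 and 0.66, and the first SLC30A5 probe lies below 0.

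SLC30A1, the plasma membrane exporter, rose by about the same amount in both lines. In DoHH2 it stood at 7.04, 6.98 and 6.96 under DMSO and at 7.58, 7.65 and 7.63 after ITF-A. In the ITF-B set of that line it went from 6.83, 6.96 and 7.13 to 7.53, 7.56 and 7.55. All 6 treated arrays of DoHH2 lay above all 6 DMSO arrays. TMD8 had lower values before treatment, 6.49, 6.57 and 6.80, and reached 7.28, 7.24 and 7.30 with ITF-A. Its ITF-B set moved from 6.63, 6.65 and 6.73 to 7.28, 7.33 and 7.31. Treated and DMSO arrays did not overlap there either. The changes were 0.63, 0.57, 0.66 and 0.64 (SE 0.0716 each; DoHH2 with ITF-A and ITF-B, then TMD8 with ITF-A and ITF-B), or 1.54-, 1.49-, 1.58- and 1.56-fold. The difference between the lines was 0.03 for ITF-A (95% interval −0.17 to 0.24) and 0.06 for ITF-B (−0.14 to 0.27). A second probe of the same transcript, ILMN_2067852, rose by 0.41, 0.47, 0.53 and 0.50 (SE 0.0935), also without overlap. Within chip 1, which holds 1 DoHH2 array of each group, that second probe changed by 0.45 (ITF-A) and 0.42 (ITF-B), which no longer passed.

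MTF1, which switches on the metallothionein genes and SLC30A1, also rose in every comparison. In DoHH2 the DMSO values of the ITF-A set were 8.46, 8.65 and 8.62 and the treated ones 9.17, 9.21 and 9.33. With ITF-B they went from 8.68, 8.63 and 8.50 to 9.36, 9.17 and 9.26. Treated and DMSO arrays were well separated in both sets of this line. TMD8 had 7.598, 7.55 and 7.73 under DMSO and 8.04, 7.98 and 8.00 after ITF-A. For ITF-B the values were 7.63, 7.74 and 7.70 before and 8.16, 8.21 and 7.99 after treatment. Again no treated array overlapped a DMSO array, and the treated TMD8 arrays stayed below the untreated DoHH2 arrays. The changes were 0.66 and 0.66 in DoHH2 (1.58-fold each) and 0.38 and 0.43 in TMD8 (1.30- and 1.35-fold; SE 0.0749). The change in TMD8 minus that in DoHH2 was −0.28 for ITF-A (interval −0.49 to −0.06) and −0.23 for ITF-B (−0.44 to −0.02), neither past the threshold (limma adjusted p 0.0748 and 0.176). The ITF-A difference did pass without background correction, in the authors' log2 table, with ComBat and with both DMSO sets as control, at values from −0.30 to −0.28.

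**Figure D2:**
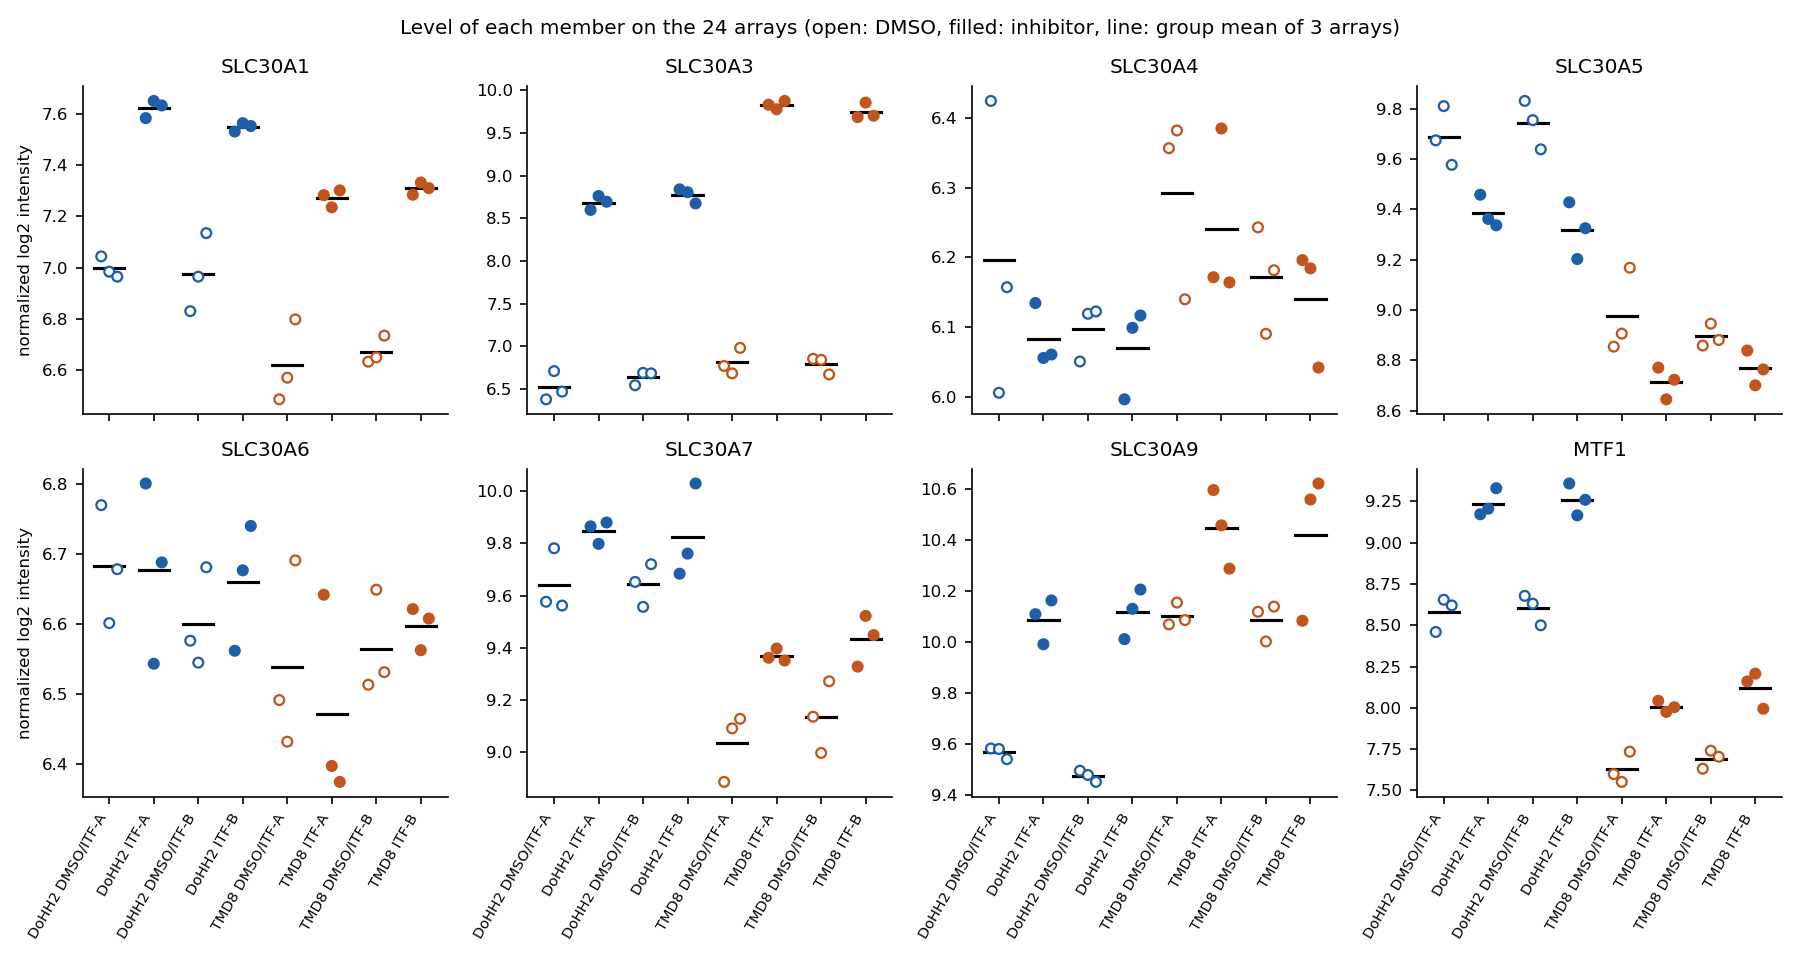
Normalized log2 intensity of each member gene (vertical axes, each with its own range that does not start at 0) on the 24 arrays, 3 in each of 8 groups; open points are DMSO, filled points treated, lines group means, blue DoHH2 and orange TMD8. SLC30A3 goes from 6.38 to 6.98 in the DMSO arrays to 8.60 to 8.84 in treated DoHH2 and 9.69 to 9.88 in treated TMD8.

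SLC30A3, the exporter of synaptic vesicles, had the largest change among the members. DoHH2 arrays read 6.38, 6.71 and 6.47 under DMSO and 8.60, 8.76 and 8.69 after ITF-A. The ITF-B set of DoHH2 read 6.54, 6.69 and 6.68, then 8.84, 8.81 and 8.67. Every treated DoHH2 array thus stood far above the highest DMSO array. In TMD8 the DMSO values of 6.77, 6.68 and 6.98 became 9.83, 9.78 and 9.88 with ITF-A. Those of the ITF-B set, 6.85, 6.84 and 6.67, became 9.69, 9.86 and 9.70. Treated TMD8 arrays were all above treated DoHH2 arrays, whereas the DMSO arrays of the lines overlapped. The changes amounted to 2.17 and 2.14 in DoHH2 (4.50- and 4.40-fold) and to 3.02 and 2.96 in TMD8 (8.12- and 7.81-fold; SE 0.0825). The size on the log2 scale depends on the background step: with an offset of 16 in place of 50 the changes were 2.72, 2.63, 3.49 and 3.44, and in the log2 table of the authors they were 1.76, 1.74, 2.58 and 2.52.

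The rise of SLC30A3 was larger in TMD8 than in DoHH2, by 0.85 with ITF-A (SE 0.117, interval 0.62 to 1.09) and by 0.83 with ITF-B (SE 0.117, interval 0.59 to 1.06). It was the only member gene whose change, by the probe read, passed the threshold for a difference between the lines, 1 of 8 with each compound, while 22.4% of all genes passed for ITF-A and 22.5% for ITF-B. Within chip 1 the differences were 0.77 and 1.03, and within chip 2 they were 0.93 and 0.63. The order of the SLC30A3 levels was thus treated TMD8, treated DoHH2, TMD8 under DMSO and DoHH2 under DMSO, and the last 2 differed by only 0.22 (SE 0.0601), which did not pass within either chip (adjusted p 0.0719 and 0.0529).

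Since SLC30A3 belongs to neurons, a list of 6 neuron markers is set beside it. Their DMSO levels lay between 5.94 and 6.37, near the median of all probes. SLC17A7, the vesicular glutamate transporter that shares vesicles with SLC30A3, changed by 0.80 and 0.72 in DoHH2 and by 3.30 and 3.15 in TMD8. SYP, a synaptic vesicle protein, changed by 0.38 and 0.33 in DoHH2 and by 1.39 and 1.46 in TMD8. SYN1 went the other way, with 0.45 and 0.53 in DoHH2 against 0.19 and 0.21 in TMD8. With ITF-A the change was larger in TMD8 for 2 markers and smaller for 0, by the threshold for a line difference. With ITF-B it was larger for 2 and smaller for 1, while 22.4% (ITF-A) and 22.5% (ITF-B) of all genes differed. Of the 6 markers, 3, 3, 2 and 3 rose in the 4 comparisons and none fell, while 18.8% to 19.3% of all genes were called up. SNAP25, RBFOX3 and SYT1 were not called in any. The summed linear level of the list went from 407 to 519 and 500 in DoHH2 and from 426 to 1244 and 1205 in TMD8 (ITF-A, then ITF-B). Whether the list had a part in the result was not tested.

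SLC30A4, the other vesicular exporter, lay near the bottom of the scale. Its brighter probe ranged from 5.997 to 6.42 over the 24 arrays, with changes of −0.11, −0.03, −0.05 and −0.03 (SE 0.0829), none called. Its other probe was dim, with every group mean under the median of all probes, and its level was not read. That probe passed only with ITF-A in TMD8 (0.21, limma adjusted p 0.0405), with overlapping groups and −0.0295 within chip 2.

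SLC30A9, the mitochondrial exporter, rose in both lines, less evenly in TMD8. In DoHH2 it read 9.58, 9.58 and 9.54 under DMSO and 10.11, 9.99 and 10.16 after ITF-A. With ITF-B it went from 9.50, 9.48 and 9.45 to 10.01, 10.13 and 10.21. Neither set of DoHH2 overlapped, and the changes were 0.52 and 0.64 (SE 0.0890; 1.43- and 1.56-fold). In TMD8 the ITF-A set read 10.07, 10.16 and 10.09, then 10.60, 10.46 and 10.29. The ITF-B set read 10.12, 10.003 and 10.14 under DMSO and 10.08, 10.56 and 10.62 after treatment. Experiment 1 with ITF-B therefore lay among the DMSO arrays, while the other 2 arrays lay well above them. The TMD8 changes were 0.34 and 0.33 (1.27- and 1.26-fold). With ITF-B the change was 0.52 within chip 1 and −0.0352 within chip 2, whose only TMD8 arrays are those of experiment 1, so the rise rests on the arrays of chip 1. The call was also lost without the array of experiment 3 (0.24, adjusted p 0.0612), and that of ITF-A without the array of experiment 1 (0.24, adjusted p 0.0719). The line difference was −0.18 for ITF-A (interval −0.43 to 0.08) and −0.31 for ITF-B (−0.56 to −0.05; adjusted p 0.111). The latter passed without the ITF-B array of experiment 3 (−0.40) and within chip 2 (−0.62).

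Among the exporters of the secretory pathway, SLC30A7 showed small rises. In DoHH2 it stood at 9.58, 9.78 and 9.56 under DMSO and at 9.86, 9.80 and 9.88 after ITF-A. The ITF-B set had 9.65, 9.56 and 9.72, then 9.68, 9.76 and 10.03. These DoHH2 groups nearly touched with ITF-A and overlapped with ITF-B. In TMD8 the values were 8.89, 9.09 and 9.13 under DMSO and 9.36, 9.40 and 9.35 with ITF-A. ITF-B arrays read 9.33, 9.52 and 9.45 against 9.14, 8.998 and 9.27. The TMD8 groups did not overlap. The changes were 0.21 and 0.18 in DoHH2 and 0.33 and 0.30 in TMD8 (SE 0.0789). The first of these was borderline (limma adjusted p 0.0494), and it no longer passed with the experiment number as a block (0.0591), within either chip (0.32 and 0.15) or without most single arrays (0.13 to 0.23). That of ITF-B in DoHH2 did not pass (adjusted p 0.1001), but did without the ITF-B array of experiment 1 (0.24). With ITF-B in TMD8 the call was lost without the DMSO array of experiment 2 (0.21, adjusted p 0.0695) and within chip 2 (0.19). The difference between the lines had intervals of −0.10 to 0.35 and −0.11 to 0.34.

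SLC30A5 was represented by 4 probes, and the 2 brightest moved in opposite directions. The annotation gives both the same transcript, NM_022902, and does not place them within it here. By the brightest probe, ILMN_1709728, DoHH2 read 9.67, 9.81 and 9.58 under DMSO and 9.46, 9.36 and 9.34 after ITF-A. Its ITF-B set went from 9.83, 9.76 and 9.64 to 9.43, 9.20 and 9.33. All treated DoHH2 arrays were lower than all DMSO arrays by this probe. In TMD8 the values were 8.85, 8.91 and 9.17, then 8.77, 8.65 and 8.72 with ITF-A. With ITF-B they were 8.86, 8.95 and 8.88, then 8.84, 8.70 and 8.76. These TMD8 groups did not overlap but were close, and experiment 3 of the DMSO arrays for ITF-A stood highest. The changes were −0.30 and −0.42 in DoHH2 and −0.26 and −0.13 in TMD8 (SE 0.0779), the last not past the threshold (adjusted p 0.2999). Without that DMSO array the TMD8 fall with ITF-A was −0.16 and no longer passed (adjusted p 0.184), and within chip 2 it was −0.08. Within chip 1 the changes in DoHH2 were −0.24 and −0.31 and did not pass. The change in TMD8 less that in DoHH2 came to 0.04 for ITF-A, and for ITF-B to 0.30 (interval 0.07 to 0.52; adjusted p 0.0679).

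The second SLC30A5 probe, ILMN_1664153, was higher after treatment. In TMD8 it read 8.26, 8.46 and 8.17 under DMSO and 8.93, 8.67 and 8.99 with ITF-A. The ITF-B set read 8.10, 8.18 and 8.31, then 8.56, 8.68 and 8.78. Both sets of TMD8 were fully separated, and so was the ITF-A set of DoHH2, while the ITF-B set of DoHH2 overlapped. In DoHH2 the ITF-A set read 8.63, 8.76 and 8.72, then 8.99, 8.87 and 8.82, and the ITF-B set 8.77, 8.68 and 8.68, then 8.80, 8.74 and 8.86. The changes were 0.57 and 0.48 in TMD8 (SE 0.0808), and in DoHH2 they were 0.19 and 0.09, neither past the threshold. The change in TMD8 exceeded that in DoHH2 by 0.38 with ITF-A (SE 0.114, interval 0.15 to 0.61) and by 0.39 with ITF-B (interval 0.16 to 0.62). These differences passed over all arrays but not within chip 1 (0.42 and 0.31) or chip 2 (0.44 and 0.42), nor with an offset of 16 (0.42 and 0.44). The ITF-A difference was also lost without any 1 of 5 arrays: the DoHH2 DMSO array of experiment 2 (0.35), the DoHH2 ITF-A array of experiment 3 (0.33), the TMD8 DMSO array of experiment 3 (0.31) and the TMD8 ITF-A arrays of experiments 1 (0.33) and 3 (0.32). That of ITF-B was lost without the TMD8 DMSO array of experiment 1 (0.35). With ITF-A in TMD8 the brightest probe fell and the second rose on the same arrays, so the direction for SLC30A5 as a gene depends on the probe. Another probe of NM_022902, ILMN_2258471, changed by 0.07, 0.01, 0.09 and 0.19, and a probe of NM_024055, ILMN_1732079, by −0.12, −0.01, −0.05 and −0.09, none of them called.

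**Figure D3:**
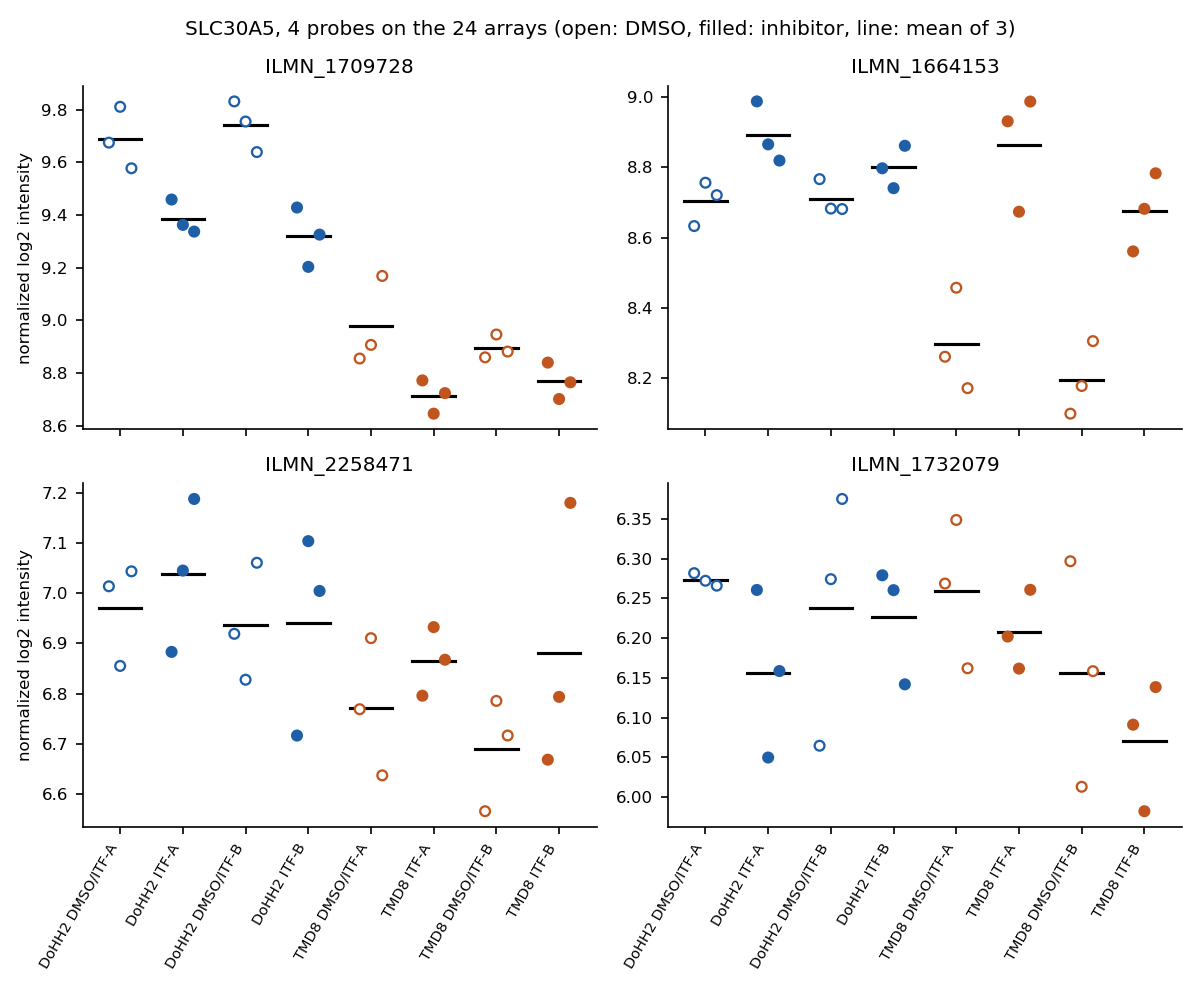
Normalized log2 intensity of the 4 SLC30A5 probes (vertical axes, each with its own range) on the 24 arrays, 3 in each of 8 groups; open points are DMSO, filled points treated, lines group means, blue DoHH2 and orange TMD8. After treatment ILMN_1709728 lies lower (changes −0.42 to −0.13) and ILMN_1664153 lies higher (0.09 to 0.57), while the other 2 probes change by 0.19 or less in size.

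SLC30A6, the partner of SLC30A5, was called in no comparison. The probe read for it ranged from 6.37 to 6.80 and changed by −0.01, 0.06, −0.07 and 0.03 (SE 0.0798). Its second probe changed by 0.10, 0.01, −0.05 and 0.01.

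Before treatment, 6 of the 8 members differed between the lines, against 43.7% of all genes, and these levels too had served to choose the set. MTF1 was lower in TMD8 by 0.93 (mean 7.66 ± 0.0780 against 8.59 ± 0.0891 in DoHH2; SD, n = 6 DMSO arrays of a line). SLC30A5 by its brightest probe had a difference of −0.76 (8.94 against 9.71), SLC30A7 of −0.59 (9.09 against 9.64) and SLC30A1 of −0.36 (6.65 against 6.99), all lower in TMD8. The other SLC30A5 probes differed less, by −0.47 (ILMN_1664153), −0.27 (ILMN_2258471) and −0.04 (ILMN_1732079), the last not past the threshold. Higher in TMD8 were SLC30A9, by 0.55 (10.10 against 9.52), and SLC30A3, by 0.22. By the probe read for each gene, the DMSO arrays of the lines were fully separated for MTF1, SLC30A1, SLC30A5, SLC30A7 and SLC30A9. They overlapped for the other members. Such separation was not counted over all genes, so nothing is read from it.

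The 2 sets of DMSO arrays of each line had the same nominal treatment, and their differences, built from levels that served to choose the set, are likewise a description. For the 14 probes, the DMSO arrays of the ITF-A set minus those of the ITF-B set differed by −0.12 to 0.10 in DoHH2 and by −0.13 to 0.19 in TMD8, and limma called 0 of 8 genes in either line (all genes 0.00499% and 0.0449%). At an unadjusted p under 0.05 there were 0 of 14 probes in DoHH2 and 1 in TMD8, the second probe of SLC30A6. Of all 47231 probes there were 2576 in DoHH2 and 3253 in TMD8.

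ITF-A and ITF-B were given at different doses, 100 nM and 200 nM, so their values stand side by side. Over the 14 probes, the change with ITF-A less that with ITF-B ran from −0.12 to 0.17 in DoHH2 and from −0.14 to 0.17 in TMD8. The 95% intervals of these differences together spanned −0.38 to 0.39 in DoHH2 and −0.36 to 0.39 in TMD8. Limma called 0 of 8 members and 0% of all genes in either line, with 0 of 14 member probes at an unadjusted p under 0.05 and 2059 and 2104 of all 47231 probes.

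The wider zinc pathway was read from lists. Beside their counts stand the shares of all genes called, 18.8% to 19.3% up and 17% to 17.8% down over the 4 comparisons. Of the 14 SLC39A importers, which bring zinc into the cytosol, 4 rose and 4 fell in DoHH2 with either compound, and 3 rose and 3 fell in TMD8. SLC39A10, an importer of the plasma membrane, fell in all comparisons, by 0.92 and 0.91 in DoHH2 and by 1.06 and 1.16 in TMD8. SLC39A3 rose by 0.43 and 0.33 in DoHH2 and by 1.23 and 0.996 in TMD8, and SLC39A6 rose by 0.24, 0.25, 0.41 and 0.28. The median change of the list stayed between −0.08 and 0.03. The change in TMD8 minus that in DoHH2 passed the threshold above 0 for 5 of the 14 importers and below 0 for 1, with both compounds. Over all genes, 22.4% (ITF-A) and 22.5% (ITF-B) passed in either direction. Apart from SLC39A3, the 6 were picked out after their values were seen. SLC39A11 stood near 0 in DoHH2 (−0.08 and −0.05) and rose in TMD8 (0.83 and 0.88). For SLC39A4, SLC39A8 and SLC39A14 the change in DoHH2 was the more negative one: SLC39A8 changed by −0.72 and −0.86 there and by −0.23 and −0.18 in TMD8. SLC39A1 had the negative difference, with 0.21 and 0.33 in DoHH2 and −0.41 and −0.42 in TMD8. The other exporters of the family, SLC30A2, SLC30A8 and SLC30A10, had DMSO levels from 5.87 to 6.26 and none was called.

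The metallothioneins, the best known targets of MTF1, rose in both lines. Of 11 read, 6 rose in DoHH2 and 7 in TMD8 with either compound, and none fell, while 18.8% to 19.3% of all genes were called up. MT1G rose by 3.70 and 3.80 in DoHH2 and by 1.73 and 1.94 in TMD8. MT1X rose by 3.19 and 3.14 in DoHH2 and by 1.77 and 1.80 in TMD8. MT2A rose by 2.83 and 2.80, and by 2.10 and 2.08. The median of the list was 1.65 and 1.49 in DoHH2 and 0.96 and 0.91 in TMD8, against about 0 for all genes. The rise was smaller in TMD8 for 5 of the 11, and larger for 1 with ITF-A and 2 with ITF-B. Over all genes, 22.4% and 22.5% differed between the lines in either direction. Under DMSO, MT1G stood at 6.94 in DoHH2 and 9.69 in TMD8, MT1X at 8.43 and 9.18, and MT2A at 9.12 and 8.97. The summed linear level of the list went from 2015 to 11525 (ITF-A) and 11476 (ITF-B) in DoHH2. In TMD8 it went from 4152 to 11992.5 and 12339. These sums have the same limits as those of the neuron markers. The part of the DMSO level in the smaller rise was not tested. These genes are near-identical copies, so a probe may read more than 1 of them.

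Of 5 genes reported as MTF1 targets in mouse or zebrafish, 3 rose in every comparison, and 2 fell in every one except ITF-B in TMD8, where 1 fell. Of all genes, 18.8% to 19.3% were called up and 17% to 17.8% down. GCLC, a subunit of the enzyme that begins glutathione synthesis, rose by 0.43 and 0.39 in DoHH2 and by 1.25 and 1.21 in TMD8. NDRG1, a stress-induced gene, rose by 1.25, 1.23, 1.20 and 1.12, and CSRP1, a LIM domain protein, by 0.82, 0.69, 0.69 and 0.50. TXNRD2, the mitochondrial thioredoxin reductase, fell by 1.15 and 1.02 in DoHH2 and by 0.74 and 0.74 in TMD8. The other that fell was SELENOH, a selenoprotein, with −0.44 and −0.33 in DoHH2 and −0.29 in TMD8 with ITF-A, while its change of −0.17 with ITF-B in TMD8 did not pass. Among 7 zinc enzymes of the secretory pathway, the clients of SLC30A5, SLC30A6 and SLC30A7, 3 rose in DoHH2 and 4 in TMD8. With ITF-B in TMD8, 1 fell, against the same shares of all genes. ENPP1 rose by 1.01, 1.07, 0.45 and 0.40 and ENPP2 by 0.73, 0.63, 0.78 and 0.68. TMEM163, another zinc transporter, fell by 0.21 and 0.28 in DoHH2 and by 0.84 and 0.76 in TMD8.

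**Figure D4:**
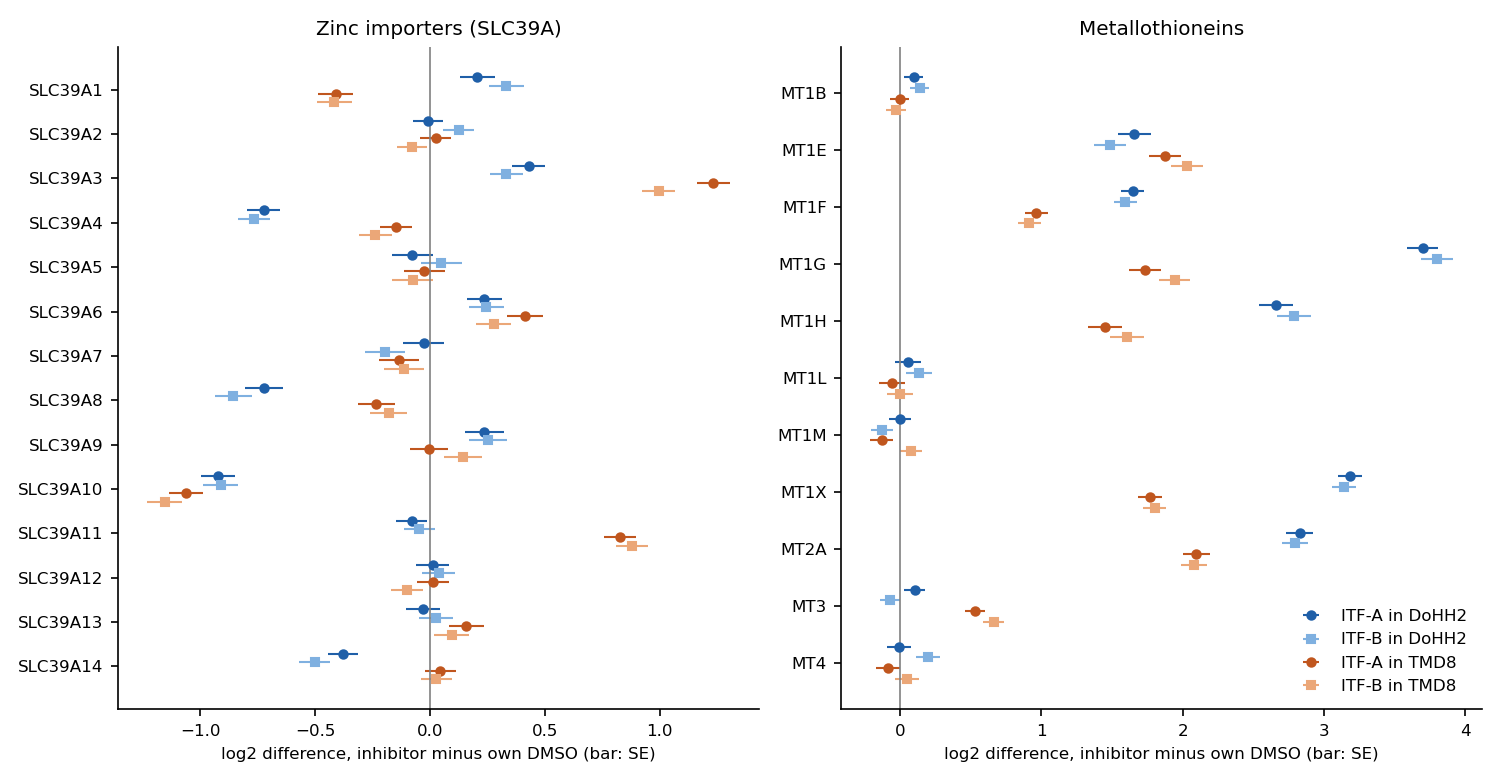
Log2 change (horizontal axes, treated minus own DMSO arrays, with standard errors) of the 14 SLC39A importers on the left and of the 11 metallothioneins on the right; circles are ITF-A, squares ITF-B, blue DoHH2 and orange TMD8. The metallothioneins reach 3.80 in DoHH2 and 2.10 in TMD8, and the SLC39A importers spread on both sides of 0, from −1.16 to 1.23.

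The genes whose levels followed the members most closely over the 24 arrays, among 12790 genes, are given as a description, since the arrays share treatment and line. For SLC30A1 they were SAT1 (Pearson r 0.9785), the enzyme that acetylates spermidine and spermine, RAB24 (0.9772) and TPST2 (0.9767). For SLC30A3 they were SERPINE2 (0.9962), GTF2B (0.9944) and SEPTIN4 (0.9942). For MTF1 they were GOSR2 (0.9875), MTRF1L (0.9860) and ASAP1 (0.9856).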

How the data were processed

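The authors profiled total RNA on HumanHT-12 v4 BeadChips. They deposited a table of probe intensities that are not normalized, with no negative control probes used here, and a table of log2 values. Per the authors' methods, data were quantile normalized, corrected for batch with ComBat and tested with LIMMA, with HG19 as the manufacturer's annotation. Columns of the log2 table each lay closest to their own array (lowest r 0.999813) and had a median of 6.689; whether ComBat was applied to it is not given in the sources used here. No columns of other samples were found.

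Starting from the intensities, normexp (offset 50), quantile normalization and log2 were applied, and limma 3.58.1 (R 4.3.3) fitted 8 groups with the chip as a term over all 24 arrays. P-values were adjusted by Benjamini-Hochberg over 47231 probes. Of these, 30113 carried 1 gene symbol, 8 several and 17110 none. A gene's values came from whichever of its probes had the highest mean, and a probe with every group mean under the median of all probes was called dim. From the zinc lists, up to 3 genes a direction that passed alike in all 4 comparisons were named, and genes outside this rule are marked or come from the marker check. The members and the lists were chosen with earlier results of these data known. The fit was tested on simulated data. Titles share experiment numbers across groups, which may mark a shared experiment. Same-numbered treated and DMSO arrays deviated from their group means with correlations of −0.0862 to 0.142 (1 of 12 pairs over 0.1). Their mean was small but positive in each set, 0.0523 and 0.0605 in DoHH2 and 0.0488 and 0.0241 in TMD8 (ITF-A, then ITF-B). The main fit did not pair arrays by number, and the replicate block did. Alternatives were the background step, the authors' log2 table, a filter on dim probes, ComBat in its parametric form, no chip term, the replicate block, each chip alone, only the arrays compared, both DMSO sets as control, array weights, and leaving out each array. The authors' own comparisons were not used.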

Additional observations from a re-analysis of the deposited data

Results flagged for a closer look

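The change of 2 probes differed between the lines by a test of the difference itself, an interaction term of the limma fit. SLC30A3 rose more in TMD8 than in DoHH2, by 0.85 with ITF-A (SE 0.117, limma adjusted p 3.01e-07) and by 0.83 with ITF-B (SE 0.117, adjusted p 5.73e-07), with all 6 treated TMD8 arrays above all 6 treated DoHH2 arrays. For the SLC30A5 probe ILMN_1664153 the change in TMD8 exceeded that in DoHH2 by 0.38 with ITF-A (SE 0.114, limma adjusted p 0.0167) and by 0.39 with ITF-B (SE 0.114, adjusted p 0.0132). The set was selected on these arrays, so these p-values describe the differences and are no independent evidence of them. The 2 compounds were tested against separate DMSO arrays. Groups of 3 arrays are too small for a search for outlying samples.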

How the results depend on the processing

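The 98 values of member probes were changes, line differences and DMSO differences. Recomputing them under 12 alternatives with all arrays and 24 with 1 array left out gave 3500 values. A value counted as turned if its direction changed and it passed the threshold in the main fit or in the alternative. By this rule 3427 stayed the same, 57 lost the call, 14 gained it and 2 turned. Values that passed in neither fit counted as the same even where their direction changed. SLC30A6 with ITF-A in TMD8 was such a case (−0.07, and 0.15 within chip 2). The 2 that turned were the dim SLC30A4 probe with ITF-A in TMD8 (0.21, and −0.0295 within chip 2) and SLC30A9 with ITF-B in TMD8 (0.33, and −0.0352 within chip 2); among 168 values of list genes only ALPG with ITF-B in TMD8 turned, to 0.13 within chip 2. Of the members, falls numbered 0 in place of 1 within chip 1 for either compound in DoHH2 and within chip 2 for ITF-A in TMD8 (0 to 1 with an array left out), and rises numbered 3 with ITF-B in TMD8 within chip 2. Line differences of members numbered 2 in place of 1 for ITF-A without background correction, in the authors' log2 table, with ComBat and with both DMSO sets, and for ITF-B without background correction, with ComBat and within chip 2 (1 to 2 with an array left out). Over all genes, chip 1 alone gave 2525 and 2499 rises (ITF-A, ITF-B) and 2224 falls with ITF-B in DoHH2, chip 2 alone gave 2315 falls with ITF-A in TMD8, and line differences numbered 2578 and 2383 for ITF-A and 2492 and 2685 for ITF-B within chips 1 and 2, where fewer arrays were fitted. The replicate block changed the call of 1 member value, SLC30A7 with ITF-A in DoHH2 (0.21, adjusted p 0.0591), and no other; the DMSO difference between lines could not be fitted with it. Probes near the median of all probes, such as those of SLC30A4 and SLC30A6, lie close to background, which limits what their changes can show.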
